A study of Mus musculus with 12 samples.

Results

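The transcripts of 10 receptors by which blood stem and progenitor cells find and hold on to the bone marrow were examined: Cxcr4, Itga4, Itgb1, Itgal, Itgb2, Itga6, Itgam, Cd44, Selplg and Pecam1. They were taken by gene symbol from a count table of 55450 genes, and each symbol matched 1 row. All 10 were abundant enough to be tested, among 14346 genes with enough counts. The cells were mouse donor cells that lack lineage markers and carry the receptor Kit, sorted from the marrow of recipients of competitive transplants. Every group therefore shares the transplant, and in each only the donor's cells were sequenced. There were 12 libraries of ribosome-depleted total RNA, 3 for each of 4 donor genotype labels: WT, Tet2 KO, Id1 KO, and Tet2 KO with Id1KO, called dKO. The alleles, the strain, the age of the mice and the time after transplantation are not given in the sources used here, nor is whether cells of several mice were pooled.

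Marrow homing is a sequence of contacts. Selectin ligands such as PSGL-1 and CD44 slow a cell on the vessel wall, the chemokine CXCL12 made by marrow stroma acts through CXCR4, and this signal switches integrins to a shape that binds tightly. An integrin is a pair of an alpha and a beta chain, so the same beta chain serves several receptors, and the loss of CXCR4 or of alpha4 beta1 contact is known to release progenitors into the blood.

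Library totals ran from 15706407 to 19959183 estimated counts. Values are given in CPM, counts divided by the TMM-scaled library size, as mean ± SD over n = 3 libraries, and "called" means an edgeR quasi-likelihood test with a Benjamini-Hochberg adjusted p under 0.05 over all genes tested. The genotype names are labels, because neither targeted gene was lower where it should be. Tet2 stood at 99.3 ± 2.2 CPM in libraries labelled WT and at 130 ± 2.5 in Tet2KO and 118 ± 3.1 in dKO. Id1 stood at 1.47 ± 0.27 CPM in WT, and at 3.86 ± 0.42 in Tet2KO, 3.93 ± 0.5 in dKO and 3.96 ± 0.34 in Id1KO. Whole-gene counts do not show the loss of a part of a gene. All libraries of a genotype carry 1 sample number in their titles and may be repeats of 1 cell sample, so the tests measure the spread between these libraries, which may be technical. Markers of the labelled cell type were present: Kit averaged 315 to 365 CPM and Mpo 8428 to 11140 CPM over the 4 groups. The T cell genes Cd3e, Cd4 and Cd8a summed to at most 0.552 CPM in any library. Genes of some other lineages were not near 0. Per library, 4 monocyte genes summed to 1351 to 1744 CPM and 4 mast cell and basophil genes to 164 to 214. The sums were 117 to 173 CPM for 4 megakaryocyte genes and 63.6 to 94.6 for 8 late neutrophil genes. In bulk RNA, fewer cells of a type and less RNA per cell cannot be told apart.

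The upstream sequences of 3 members are shown first because these genes had the most different patterns below: Cxcr4 had the largest rise with the Tet2KO label, Itgam the largest fall in dKO, and Itgb1 no called change. TET2 acts on methylated cytosine in CG pairs, so CG pairs are in capitals. Each run is the 250 bases before the RefSeq transcript start (GRCm38.p6), 5′ to 3′ on the gene's strand. Windows were found for 5 of the 10 genes.
Cxcr4, chr1:128592300-128592549, minus strand: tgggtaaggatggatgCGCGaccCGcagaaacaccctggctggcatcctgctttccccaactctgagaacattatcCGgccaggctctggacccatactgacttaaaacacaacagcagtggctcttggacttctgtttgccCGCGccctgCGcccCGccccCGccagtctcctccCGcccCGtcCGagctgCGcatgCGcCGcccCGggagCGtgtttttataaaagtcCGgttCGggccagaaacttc
Itgam, chr7:128062390-128062639, plus strand: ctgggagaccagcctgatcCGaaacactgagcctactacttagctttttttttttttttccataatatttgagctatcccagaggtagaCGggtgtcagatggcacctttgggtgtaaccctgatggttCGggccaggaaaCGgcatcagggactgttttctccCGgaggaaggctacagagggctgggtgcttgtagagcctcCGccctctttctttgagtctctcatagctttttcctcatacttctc
Itgb1, chr8:128685404-128685653, plus strand: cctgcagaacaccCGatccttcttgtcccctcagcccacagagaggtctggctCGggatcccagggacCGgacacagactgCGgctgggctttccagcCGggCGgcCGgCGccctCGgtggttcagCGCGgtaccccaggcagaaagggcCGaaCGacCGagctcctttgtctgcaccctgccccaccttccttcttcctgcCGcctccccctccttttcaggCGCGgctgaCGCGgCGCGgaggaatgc
Cxcr4 held 19 CG pairs and Itgb1 21, against 6 each in Itgam and Itga4 and 5 in Cd44. The median over 32851 windows of the same length was 6, with quartiles of 2 and 16, and 92.1% held at least 1. The Cxcr4 and Itgb1 windows thus both lay above the upper quartile. The part of CG pairs in the differences between labels was not tested. The E-box CANNTG, the motif of the helix-loop-helix factors whose partners Id1 binds, was searched on both strands. It occurred once each in Itga4 (CAGCTG) and Itgam (CAGATG) and in none of Cxcr4, Itgb1 and Cd44, where 66.2% of all windows hold one. These matches describe letters in a short window, and methylation was not measured.

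Most members had their highest level under the same label. The mean was highest in libraries labelled Tet2KO for 9 of the 10, against 30.2% of all genes tested, and in Id1KO for Itgb1 (26.5%). It was highest in WT or dKO for 0 members (23.1% and 20.2%). It was lowest in Id1KO for 6 members (26.6% of all genes), in dKO for Itgb2, Itgam and Itgb1 (21.5%), in WT for Cxcr4 (20.3%), and in Tet2KO for 0 (31.6%). The 5 progenitor markers Kit, Cd34, Ptprc, Flt3 and Mpo summed to 10850 to 10890 CPM in WT, 12120 to 12360 in Tet2KO, 8937 to 9715 in dKO and 8913 to 9661 in Id1KO, most of it Mpo, and their part in the order of the members was not tested. The differences between groups were small throughout. No member that was called differed by more than 1.5-fold in any comparison, where 5.64% of all genes did so in Tet2KO against WT, 1.7% in Id1KO against WT, 4.48% in dKO against WT, 2.91% in dKO against Tet2KO, 4.08% in dKO against Id1KO and 2.54% for the interaction.

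**Figure D1:**
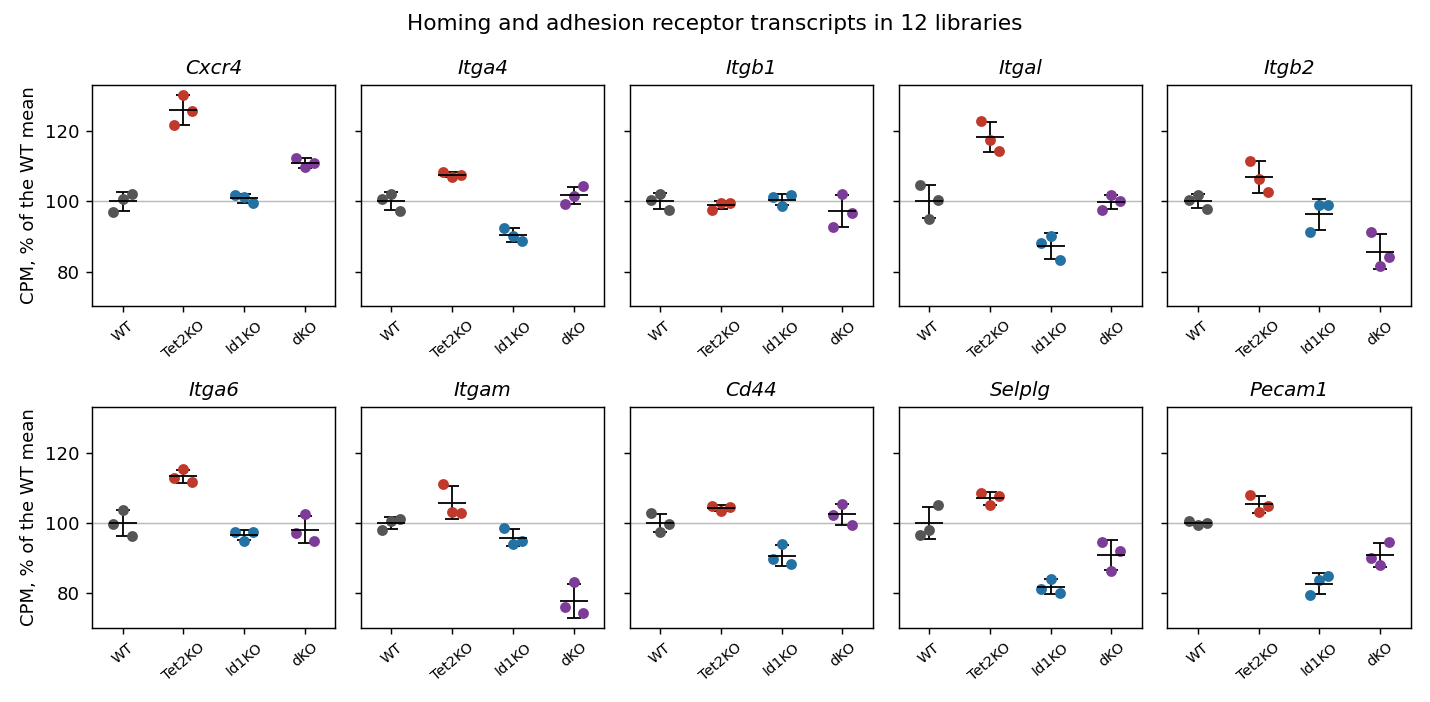
CPM of each receptor transcript in the 12 libraries, as a percentage of its mean in WT (y axis, not starting at 0), by genotype label (x axis). Points are libraries and bars are the mean and SD of n = 3. Cxcr4 stands highest in Tet2KO, Itgam and Itgb2 lowest in dKO, Selplg and Pecam1 lowest in Id1KO, and Itgb1 is level.

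In Tet2KO against WT, 5 of the 10 members were called and all 5 were higher: Cxcr4, Itgal, Itga6, Itga4 and Selplg. Among all genes tested 32.8% were called, 16.6% higher and 16.2% lower. Among the 6266 genes at a mean of 30 CPM or more, where all members lie, 44.6% were called, so the number of members called was near the background. The median log2 change of the members was 0.10, against 0 over all genes. The Tet2KO libraries did not overlap those of WT for 8 members, or for 46% of all genes. In Id1KO against WT 5 members were also called, all lower: Selplg, Pecam1, Itgal, Itga4 and Cd44. Here 15% of all genes were called, 7.77% lower and 7.26% higher, and 21.7% at 30 CPM or more. The same 5 members were without overlap, as were 32.7% of all genes. The members' median was -0.10, against -0.01 for all genes.

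In dKO against Tet2KO, the comparison that asks what the Id1KO label adds to Tet2KO, 8 of 10 members were called and all 8 were lower. Of all genes 26.4% were called, 13.4% lower and 13.1% higher, and 38.7% of those at 30 CPM or more. The same 8 members were without overlap, as were 39.9% of all genes. The members' median was -0.21, against 0 for all genes. In dKO against Id1KO 8 were called, 6 higher and 2 lower (19.3% of all genes, 10.6% higher and 8.7% lower, and 25.2% at 30 CPM or more), and 8 were without overlap (33.2% of all genes). In dKO against WT 5 were called, 1 higher and 4 lower (19.2% of all genes, 10.2% higher and 8.97% lower, and 24% at 30 CPM or more), and 5 were without overlap (33.1% of all genes). The interaction was called for 4 members, all negative (14.5% of all genes, 7.03% negative and 7.46% positive, and 21.9% at 30 CPM or more), and for 2 without Tet2KO replicate 1. These comparisons share libraries with each other, so their counts are not independent. When the 3 libraries of each genotype were summed and additive effects of both labels were fitted with edgeR, 0 of 10 members were called for either label. In that fit 4 members for Tet2 and 3 for Id1 had an unadjusted p under 0.05.

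**Figure D2:**
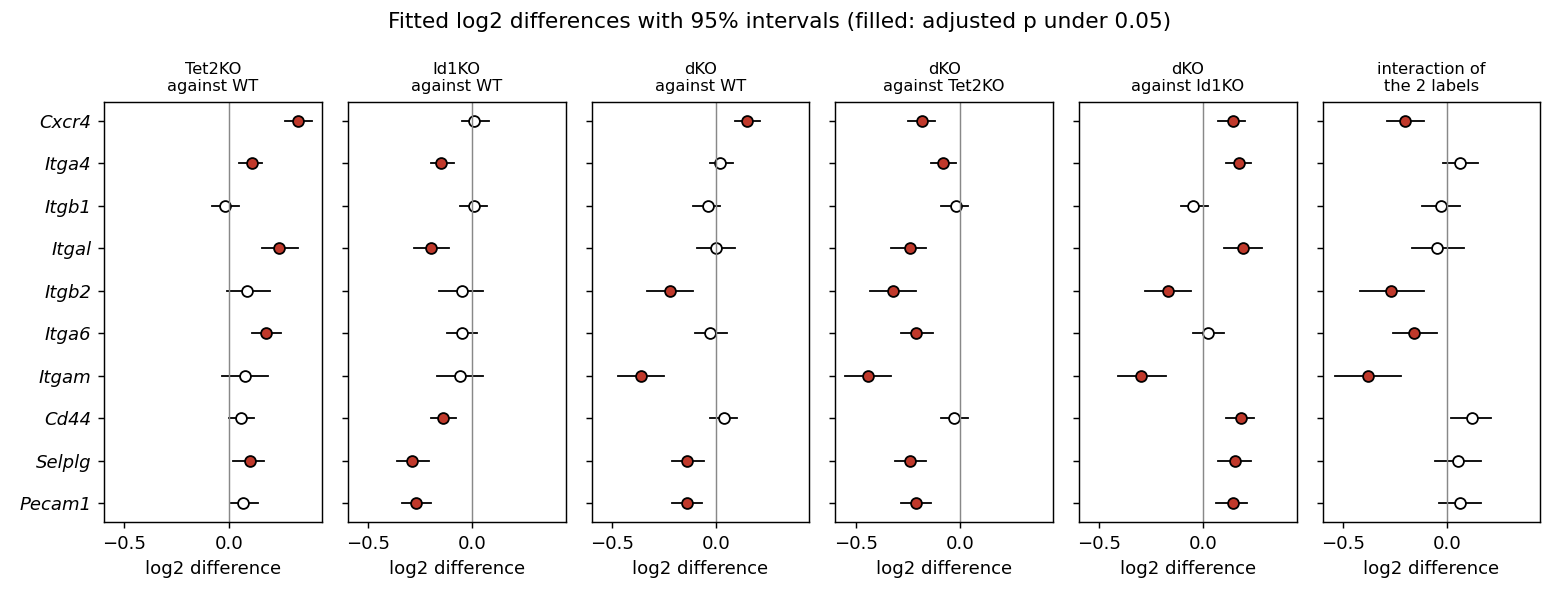
Fitted log2 differences (x axis) of the 10 receptor transcripts in 5 pairwise comparisons and the interaction, with 95% intervals from the edgeR fit; filled points passed an adjusted p of 0.05. For Tet2KO against WT every called member lies to the right of 0, and for both comparisons that add the Id1KO label to WT or to Tet2KO every called member lies to the left.

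Cxcr4 (ENSMUSG00000045382.6, chr1:128588199-128592293, GRCm38), the receptor for CXCL12, was the most abundant member per length at 82.4 CPM per kb of exon over the 12 libraries. It stood at 132, 137 and 139 CPM in libraries labelled WT, at 166, 177 and 171 in Tet2KO, at 139, 138 and 135 in Id1KO, and at 153, 149 and 151 in dKO. The Tet2KO libraries were highest and the dKO libraries came next, with no overlap between these and the other groups, while WT and Id1KO overlapped. Cxcr4 rose by a log2 change of 0.33 ± 0.03 (SE) in Tet2KO against WT, a 1.26-fold difference with an adjusted p of 5.58e-08. From Tet2KO to dKO it fell by 0.18 (adjusted p 0.000129), yet it was still 0.15 ± 0.03 above WT in dKO (0.0015). The Id1KO label alone gave 0.01, with a 95% interval from -0.05 to 0.08. The interaction, which is the effect of adding the Id1KO label on the Tet2KO background minus its effect on the WT background, was -0.20 ± 0.043 (0.00408). Its ligand Cxcl12 had at most 6 counts in any library, and these were too few to test.

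The beta1 chain and its alpha4 partner parted ways. Itgb1 (ENSMUSG00000025809.15, chr8:128685654-128733200) encodes the beta1 chain, shared by alpha4 beta1, alpha6 beta1 and other receptors for fibronectin, laminin and VCAM-1. Its 12 libraries lay between 213 and 234 CPM and all groups overlapped. None of its comparisons was called, and the 95% intervals of its 5 pairwise log2 differences ran from -0.11 to 0.07. Without dKO replicate 2, however, Itgb1 was called lower in dKO than in Id1KO (-0.09, edgeR adjusted p 0.0485). Itga4 (ENSMUSG00000027009.18, chr2:79255426-79333123) encodes alpha4, which with beta1 binds VCAM-1. It stood at 292, 296 and 281 CPM in WT, 314, 310 and 312 in Tet2KO, 287, 294 and 302 in dKO, and 268, 261 and 257 in Id1KO. Tet2KO lay above WT and Id1KO below every other group, whereas dKO overlapped WT. The log2 change was 0.11 ± 0.028 in Tet2KO against WT (edgeR adjusted p 0.00608), -0.15 ± 0.028 in Id1KO against WT (0.00128) and 0.17 ± 0.028 in dKO against Id1KO (2e-04). The smaller fall from Tet2KO to dKO, of 0.08 (0.0362), was lost without any 1 of the 3 Tet2KO libraries or without dKO replicate 1, with an adjusted p of up to 0.134. Exons of Itga4 share 1124 bp with Cerkl on the opposite strand. Whether the counting used strand is not given in the sources used here. Cerkl had 20 to 81 counts per library, and the sum of both genes changed by 0.10 in Tet2KO and -0.15 in Id1KO against WT.

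Itga6 (ENSMUSG00000027111.15, chr2:71745616-71858416), the alpha6 chain of laminin receptors, is a common surface marker of blood stem cells. It stood at 99.3, 103 and 96 CPM in WT and at 112, 115 and 111 in Tet2KO. Id1KO had 97.1, 94.6 and 97.1 CPM, and dKO 96.7, 102 and 94.5. Only the Tet2KO libraries stood apart, above all others. Itga6 rose by 0.18 ± 0.034 in Tet2KO against WT (edgeR adjusted p 0.000423) and fell by 0.21 from Tet2KO to dKO (0.000181). Its interaction of -0.16 ± 0.049 (0.0369) was lost with DESeq2 (0.0802) and, with p up to 0.0922, when any of 8 single libraries was dropped: WT replicate 1 or 3, Tet2KO replicate 1 or 2, Id1KO replicate 1 or 3, dKO replicate 1 or 3. The transcript shares stretches with 7 gene models and copies, which together held 269 to 350 counts per library. With them added, the Tet2KO change was 0.17.

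Among the beta2 integrins of white cells, Itgal moved with the Tet2KO label while Itgam and Itgb2 were low in dKO. Itgal (ENSMUSG00000030830.18, chr7:127296260-127335138) encodes alphaL, which with beta2 forms LFA-1, the receptor for ICAM-1. It stood at 76.4, 69.5 and 73.3 CPM in WT, 89.7, 85.9 and 83.5 in Tet2KO, 71.3, 74.4 and 73 in dKO, and 64.5, 65.9 and 60.7 in Id1KO. Tet2KO was highest and Id1KO lowest without overlap, and dKO lay within WT. The log2 change was 0.24 ± 0.041 in Tet2KO against WT (edgeR adjusted p 0.00013) and -0.20 ± 0.042 in Id1KO against WT (0.00305). In dKO it was 0.24 below Tet2KO and 0.19 above Id1KO, with an interval of -0.09 to 0.09 against WT.

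Itgam (ENSMUSG00000030786.18, chr7:128062640-128118491) encodes alphaM, also called CD11b, which with beta2 forms the complement receptor Mac-1 of myeloid cells and commonly serves as a lineage marker. It was the least abundant member, at 6.10 CPM per kb. Its libraries had 31.7, 32.5 and 32.7 CPM in WT, 35.9, 33.3 and 33.2 in Tet2KO, 24.5, 26.9 and 24 in dKO, and 31.8, 30.3 and 30.7 in Id1KO. The dKO libraries lay below all others without overlap. Itgam fell by 0.44 ± 0.054 on the log2 scale from Tet2KO to dKO, the largest difference of any member, with an edgeR adjusted p of 5.91e-06. Against WT it fell by 0.36 (6.73e-05) and against Id1KO by 0.30 (0.000523), and its interaction was -0.38 ± 0.075 (0.00191). It was the 1 member that also passed a test against a 1.2-fold change, in dKO against Tet2KO (0.0208). Gm49368 shares 3450 exonic bp with Itgam on the same strand and had at most 3.74 counts in any library.

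Itgb2 (ENSMUSG00000000290.13, chr10:77530252-77565708), the beta2 chain of both receptors, stood at 39.7, 40.2 and 38.6 CPM in WT, 44.1, 42.1 and 40.5 in Tet2KO, 36.01, 32.2 and 33.3 in dKO, and 36.02, 39 and 39.1 in Id1KO. The dKO libraries were lower than every library labelled WT or Tet2KO and just below the lowest of Id1KO. Itgb2 fell by 0.32 from Tet2KO to dKO (edgeR adjusted p 0.000146) and by 0.22 from WT to dKO (0.00451). The fall of 0.17 from Id1KO to dKO (0.0279) was lost with DESeq2 (0.0744) and without Id1KO replicate 2 or 3 or dKO replicate 2 or 3 (up to 0.108). Its interaction of -0.27 ± 0.073 (0.0189) was lost without Tet2KO replicate 1 (0.0557).

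Markers of other blood cells moved between the groups too. The 8 late neutrophil genes summed to 63.6 to 68.7 CPM per library in WT, 83 to 87.7 in Tet2KO, 84.5 to 94.6 in dKO and 66 to 70.3 in Id1KO, and 7 of them were tested. The 4 monocyte genes, all tested, summed to 1450 to 1513 CPM in WT, 1695 to 1744 in Tet2KO, 1647 to 1703 in dKO and 1351 to 1369 in Id1KO. The 6 macrophage genes, all tested, summed to 22.6 to 25.7 CPM in WT, 30.9 to 32.9 in Tet2KO, 25.4 to 27 in dKO and 20.9 to 26 in Id1KO. The 4 mast cell and basophil genes, all tested, summed to 193 to 205 CPM in WT, 186 to 188 in Tet2KO, 164 to 171 in dKO and 209 to 214 in Id1KO. The 4 dendritic cell genes, 2 of them tested, summed to 83 to 84.5 CPM in WT, 104 to 107 in Tet2KO, 75.4 to 78.3 in dKO and 70.8 to 77.4 in Id1KO. No gene of these lists was at 0 in all libraries. From Tet2KO to dKO, where Itgam and Itgb2 fell most, the macrophage, dendritic and mast cell sums were lower without overlap, and the late neutrophil and monocyte sums overlapped. The mast cell sum was, like Itgam, lowest in dKO. The late neutrophil, monocyte, macrophage and dendritic sums were higher in Tet2KO than in WT, as were the called members there. The mast cell and erythroid sums were lower in Tet2KO than in WT. The 4 erythroid genes, all tested, summed to 28.9 to 31.2 CPM in WT and 14.6 to 16.9 in Tet2KO. Their sums were 39 to 41.4 CPM in dKO, the highest of the groups, and 26.5 to 31.3 in Id1KO. Single genes did not all follow their sum. Most of the dendritic sum was Flt3, also a progenitor marker, at 68.9 CPM in WT and 99.4 in Tet2KO. Mgl2, of the same list, stood at 14.6 CPM in WT, 5.16 in Tet2KO and 2.57 in dKO. F13a1 of the monocyte list, and Camp and Ngp of the late neutrophil list, were among the genes lower in Tet2KO than in WT. The part of these cells in the differences was not tested.

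Within a library, the alpha to beta ratio does not depend on scaling. Per kb of exon, Itga4 stood at 0.369 ± 0.0016 of Itgb1 in WT, 0.402 ± 0.0075 in Tet2KO, 0.387 ± 0.017 in dKO and 0.332 ± 0.0091 in Id1KO. Tet2KO was above and Id1KO below WT without overlap, and dKO, from 0.368 to 0.398, overlapped both WT and Tet2KO. The Itga6 to Itgb1 ratio was 0.225 ± 0.0040 in Tet2KO and between 0.188 and 0.206 in all libraries of the other groups. For Itgal to Itgb2 the ratio was 0.860 ± 0.049 in WT, 0.951 ± 0.0063 in Tet2KO, 1.005 ± 0.078 in dKO and 0.780 ± 0.055 in Id1KO. The Itgam to Itgb2 ratio overlapped between all groups, from 0.414 to 0.536. Itgal to Itgb2 ratios overlapped between WT and Id1KO and between Tet2KO and dKO, and the other pairs of groups did not overlap. An exact permutation test of 3 against 3 cannot go below 0.1, so these ratios are given without a test.

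**Figure D3:**
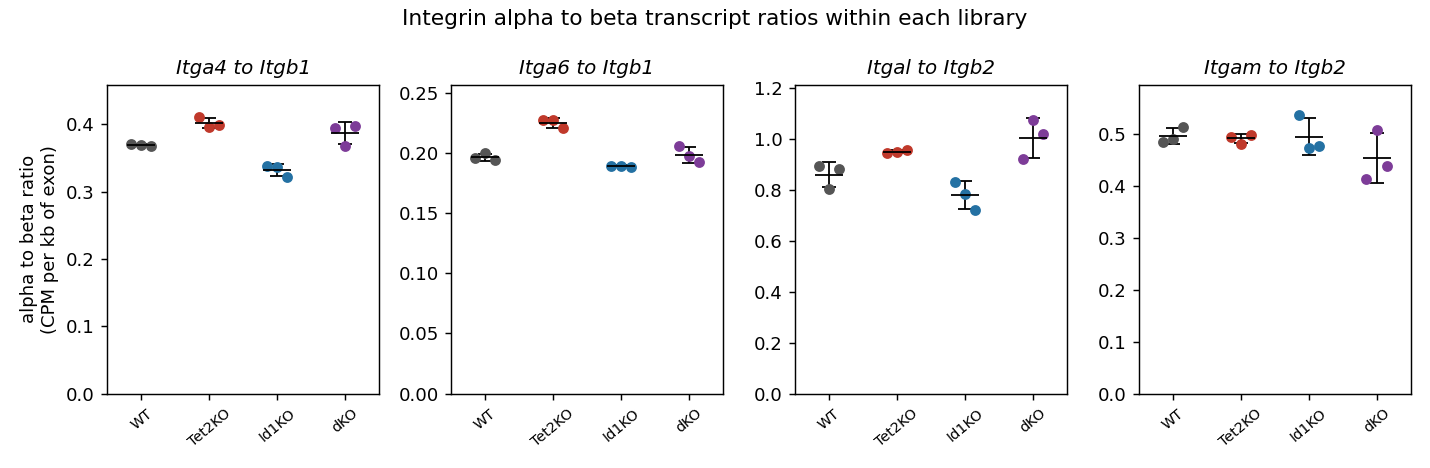
Ratio of alpha to beta integrin transcripts within each library, in CPM per kb of exon (y axis from 0), by genotype label (x axis); points are libraries, bars the mean and SD of n = 3. Itga4 and Itga6 stand highest against Itgb1 in Tet2KO, and the Itgam to Itgb2 ratios overlap in all groups.

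The selectin ligand, the hyaluronan receptor and PECAM-1 were lowest in Id1KO. Selplg (ENSMUSG00000048163.13, chr5:113818536-113832644) encodes PSGL-1, the main ligand of P-selectin on white cells. It stood at 135, 137 and 147 CPM in WT, 151, 146 and 150 in Tet2KO, 132, 120 and 128 in dKO, and 113, 117 and 112 in Id1KO. Id1KO lay below all others and dKO between Id1KO and WT, while WT and Tet2KO overlapped. Selplg fell by 0.29 ± 0.037 in Id1KO against WT (edgeR adjusted p 1.89e-05) and by 0.24 from Tet2KO to dKO (7.94e-05). Its change of 0.10 in Tet2KO against WT (0.0403) was lost with DESeq2 (0.0682) and without WT replicate 1 or 2 or Tet2KO replicate 1 or 3 (up to 0.138). Against WT, dKO was lower by 0.14 (0.0115), a call lost without WT replicate 3 or dKO replicate 2 (up to 0.0977). Against Id1KO it was higher by 0.15 (0.00766), which was lost without dKO replicate 1 (0.0517).

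Pecam1 (ENSMUSG00000020717.19, chr11:106654217-106750628) encodes CD31, an immunoglobulin-type molecule that binds itself between white cells and endothelium. It had 110, 109 and 110 CPM in WT, 118, 113 and 115 in Tet2KO, 98.8, 96.5 and 104 in dKO, and 87, 91.9 and 93.1 in Id1KO. No group overlapped another. Pecam1 fell by 0.27 ± 0.034 in Id1KO against WT (edgeR adjusted p 1.28e-05), by 0.21 from Tet2KO to dKO (0.00011) and by 0.14 in dKO against WT (0.00685). The change of 0.07 in Tet2KO against WT did not pass the threshold (0.0911). The rise of 0.14 from Id1KO to dKO (0.00814) was lost without Id1KO replicate 1 or dKO replicate 3 (up to 0.0613). Some Pecam1 transcripts hold a repeat shared with many genes at 95% identity or more, so some of its reads could be assigned elsewhere. The endothelial genes Cdh5, Kdr, Emcn and Tek, 3 of them tested, summed to 6.84 to 8.27 CPM in WT, 11.2 to 12.1 in Tet2KO, 10.6 to 11.8 in dKO and 7.04 to 8.17 in Id1KO. Most of this sum was Tek, at 5.34 CPM in WT and 9.10 in Tet2KO. In the same groups Kdr stood at 1.158 and 1.315 CPM and Emcn at 0.927 and 1.11. Cdh5, which defines endothelium, was at 0.0886 CPM or less in every group mean.

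Cd44 (ENSMUSG00000005087.17, chr2:102811141-102901665), the hyaluronan receptor that also carries selectin ligand sugars, stood at 215, 204 and 208 CPM in WT, 219, 216 and 218 in Tet2KO, 214, 220 and 208 in dKO, and 188, 196 and 184 in Id1KO. The Id1KO libraries lay below all others. Cd44 fell by 0.14 ± 0.031 in Id1KO against WT (edgeR adjusted p 0.0036) and was 0.18 ± 0.031 higher in dKO than in Id1KO (0.000349). The change from Tet2KO to dKO was -0.03, with a 95% interval of -0.09 to 0.04. For Selplg, Pecam1, Itgal and Itga4, which with Cd44 were the members lower in Id1KO than in WT, no interaction was called, with estimates from -0.05 to 0.06. That of Cd44 was 0.12 with a 95% interval of 0.02 to 0.21 (adjusted p 0.0821), and it was called without Id1KO replicate 2 (0.14, adjusted p 0.038).

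Whether related genes moved too was read from 7 lists of 191 genes of the same pathway, of which 148 were tested. In Tet2KO against WT 73 of these were called, 52 higher and 21 lower. These are 49.3%, against 32.8% of all genes and 44.6% of those at 30 CPM or more. In dKO against Tet2KO 73 were called, 14 higher and 59 lower, or 49.3% against 26.4% and 38.7%. In Id1KO against WT 38 were called, 12 higher and 26 lower, or 25.7% against 15% and 21.7%. Like the members, more of these genes were called higher than lower in Tet2KO and more were called lower than higher in dKO against Tet2KO. The lists and the members were chosen with earlier results of these data known, so this likeness is not independent support.

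**Figure D4:**
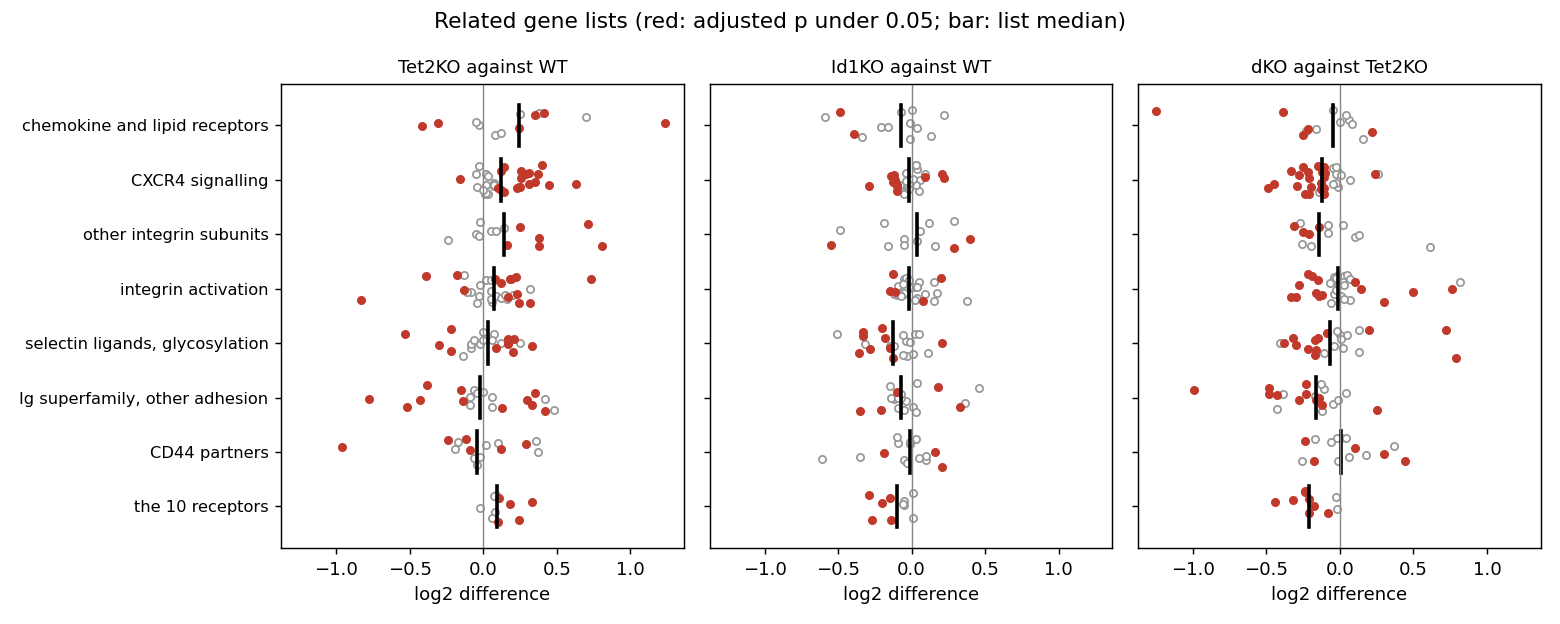
Log2 differences (x axis) of every tested gene in 7 related lists and of the 10 receptors (rows) in 3 comparisons. Red points passed an adjusted p of 0.05 and bars are list medians; the median of the CXCR4 signalling list lies at 0.12 in Tet2KO against WT and at -0.12 in dKO against Tet2KO.

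Genes that carry or end the CXCR4 signal were called mostly in one direction in Tet2KO against WT, and mostly in the other from Tet2KO to dKO. Of 33 tested, 18 were called higher and 1 lower in Tet2KO against WT, with a median log2 change of 0.12, and 21 lower and 1 higher in dKO against Tet2KO, with a median of -0.12. These are 57.6% and 66.7% called, against 32.8% and 26.4% of all genes, or 44.6% and 38.7% at 30 CPM or more. In Id1KO against WT 3 were called higher and 8 lower (33.3%, against 15% of all genes), and 5 or 7 in all without any 1 of the WT libraries, Id1KO replicate 1 or Id1KO replicate 3. Dpp4, the surface protease that inactivates CXCL12, stood at 29.5 ± 1.4 CPM in WT, 40.3 ± 1.4 in Tet2KO, 28.7 ± 0.94 in dKO and 29.1 ± 0.83 in Id1KO. Only the Tet2KO libraries were apart, and Dpp4 fell by 0.49 ± 0.051 from Tet2KO to dKO (edgeR adjusted p 6.76e-07). Gng11, a G protein gamma subunit, rose by 0.63 ± 0.13 in Tet2KO against WT (0.000735) from 3.89 ± 0.22 CPM. Gng2, another gamma subunit, fell by 0.29 in Id1KO against WT (9.74e-05), and Rgs1, which shuts off G protein signals, rose by 0.22 (0.00624). Rgs10, of the same family, was the 1 gene called higher in dKO than in Tet2KO, by 0.24 (0.00387). Cdc42, the small GTPase that was most abundant in the list, had group means from 352 to 359 CPM and was not called in these 3 comparisons.

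Of 13 tested chemokine and lipid receptors, 4 were called higher and 2 lower in Tet2KO against WT, and 1 higher and 4 lower in dKO against Tet2KO. These are 46.2% and 38.5%, near the 44.6% and 38.7% of all genes at 30 CPM or more (32.8% and 26.4% of all genes). Ccr2, the monocyte chemokine receptor, did not follow Cxcr4: it stood at 147 ± 7.1 CPM in WT, 173 ± 1 in Tet2KO, 202 ± 6.7 in dKO and 151 ± 5.7 in Id1KO. It rose in Tet2KO against WT by 0.24 ± 0.036 and again from Tet2KO to dKO by 0.22 ± 0.035 (edgeR adjusted p 8.97e-05). Cxcr2, the neutrophil receptor that opposes CXCR4 in marrow release, rose by 0.41 ± 0.11 in Tet2KO against WT (0.00592). Its fall of 0.39 in dKO (0.0114) was lost without Tet2KO replicate 3 (0.0583) or dKO replicate 3 (0.0549). P2ry14, a nucleotide sugar receptor, fell by 0.42 in Tet2KO against WT (0.0112), a call lost with DESeq2 (0.0506) and without WT replicate 2 (0.0626) or Tet2KO replicate 2 (0.0561). Ptger2, a prostaglandin E2 receptor, fell by 0.49 in Id1KO against WT (0.00268).

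Other integrin chains gave 6 of 13 tested genes called in Tet2KO against WT, all higher, and 4 called in dKO against Tet2KO, all lower. Their shares of 46.2% and 30.8% compare with 32.8% and 26.4% of all genes, and with 44.6% and 38.7% at 30 CPM or more. In the latter 2 were called without dKO replicate 3. Itgax, the dendritic cell chain CD11c, rose by 0.81 ± 0.16 (edgeR adjusted p 0.000501) from 3.03 ± 0.51 to 5.31 ± 0.69 CPM. Itga2b, the platelet chain CD41, stood at 83.9 ± 1.2 CPM in WT and 110.5 ± 5.6 in Id1KO, a rise of 0.40 ± 0.046 (6.09e-06). The megakaryocyte list of 4 genes that includes it, all tested, summed to 117 to 121 CPM per library in WT, 119 to 131 in Tet2KO, 117 to 130 in dKO and 162 to 173 in Id1KO, and its part was not tested. The smaller rise of Itga2b in Tet2KO against WT, 0.16 (0.0149), was lost without Tet2KO replicate 1 (0.0942). Its fall of 0.14 from Tet2KO to dKO (0.0407) was lost without Tet2KO replicate 1 or 3 or dKO replicate 2 or 3 (up to 0.197). Itga1, a collagen receptor chain, fell by 0.55 ± 0.06 in Id1KO against WT (2.63e-06). Itgb7, which pairs with alpha4 in gut homing, fell by 0.31 from Tet2KO to dKO (0.000775).

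Of 32 tested genes that activate integrins or tie them to actin, 10 were called higher and 4 lower in Tet2KO against WT, and 5 higher and 9 lower in dKO against Tet2KO. Each is 43.8%, against 32.8% and 26.4% of all genes, or 44.6% and 38.7% at 30 CPM or more. Flna, the actin crosslinker filamin A and the most abundant, rose by 0.23 ± 0.027 in Tet2KO against WT (edgeR adjusted p 1.8e-06) and fell by 0.15 to dKO (0.000307). Ptk2, the focal adhesion kinase, fell by 0.83 ± 0.12 in Tet2KO against WT (3.14e-05), from 6.31 ± 0.14 to 3.55 ± 0.45 CPM. Rap1b, the GTPase that switches integrins on, rose by 0.20 ± 0.029 in Id1KO against WT (8.49e-05). Parvb rose by 0.76 ± 0.12 from Tet2KO to dKO (0.000108) and Cyth1, a beta2 integrin regulator, fell by 0.33 ± 0.045 (1.94e-05). The fall of Cyth1 in Id1KO against WT, by 0.15 (0.0233), was lost with DESeq2 (0.064) and without WT replicate 1 (0.147), Id1KO replicate 1 (0.0984) or Id1KO replicate 3 (0.0513). In Id1KO against WT 5 genes of the list were called (15.6%, against 15% of all genes), and 2 with DESeq2 or without Id1KO replicate 1, and 3 without WT replicate 1.

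Selectin ligands and the enzymes that build their sugars had 7 called higher and 4 lower of 22 in Tet2KO against WT, and 1 higher and 8 lower in Id1KO against WT, where Selplg also fell. These are 50% and 40.9%, against 32.8% and 15% of all genes, or 44.6% and 21.7% at 30 CPM or more. Cd93 stood at 494 ± 12 CPM in WT, 570 ± 12 in Tet2KO, 439 ± 2.1 in dKO and 384 ± 2.7 in Id1KO, with no overlap between groups. It fell by 0.36 ± 0.026 in Id1KO against WT (edgeR adjusted p 6.06e-09) and by 0.38 ± 0.026 from Tet2KO to dKO (1.88e-09). Spn, the sialomucin CD43 and the most abundant of the list, fell by 0.18 ± 0.024 in Id1KO against WT (4.46e-05) and by 0.17 from Tet2KO to dKO (3.5e-05). Selp, the P-selectin that PSGL-1 binds, rose by 0.33 in Tet2KO against WT (0.000314), and Cd24a fell by 0.30 ± 0.029 (1.57e-07). C1galt1, which builds the core sugar that selectin ligands extend, rose by 0.21 in Id1KO against WT (0.00639) and by 0.20 from Tet2KO to dKO (0.006).

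The counter-receptors of integrins and other adhesion molecules of the immunoglobulin family changed in both directions. Of 20 tested genes, 5 were called higher and 6 lower in Tet2KO against WT, and 1 higher and 10 lower in dKO against Tet2KO. Each is 55%, against 32.8% and 26.4% of all genes, or 44.6% and 38.7% at 30 CPM or more. Vcam1, the ligand of alpha4 beta1, stood at 30.3 ± 1.3 CPM in WT, 17.6 ± 1.2 in Tet2KO, 12.7 ± 1.2 in dKO and 29.5 ± 0.66 in Id1KO. It fell by 0.78 ± 0.063 in Tet2KO against WT (edgeR adjusted p 1.09e-08) and by 1.22 ± 0.068 in dKO against Id1KO (7.92e-11), while Itga4 rose in both. The other comparisons did not show opposite changes. In dKO against WT Vcam1 fell by 1.26 (4.66e-11) and Itga4 was not called (0.02). From Tet2KO to dKO both fell, Vcam1 by 0.48 and Itga4 by 0.08. In Id1KO against WT Itga4 fell by 0.15 and Vcam1 was not called (-0.04). Vcam1 is also a macrophage gene. The 6 macrophage genes above had mean sums of 24.21 CPM in WT, 31.65 in Tet2KO, 26.13 in dKO and 23.68 in Id1KO. The part of macrophages in the change of Vcam1 was not tested. Icam1, the ligand of LFA-1, rose by 0.33 ± 0.068 in Id1KO against WT (0.00226), where Itgal fell, and by 0.35 ± 0.068 in Tet2KO against WT (0.000542), where Itgal rose. Ncam1 stood at 18.6 ± 0.32 CPM in WT, 24.9 ± 0.33 in Tet2KO, 12.5 ± 0.95 in dKO and 14.6 ± 0.10 in Id1KO. It rose by 0.42 ± 0.057 in Tet2KO against WT (1.11e-05) and fell by 0.99 ± 0.062 from Tet2KO to dKO (4.02e-10). Against WT it fell by 0.57 in dKO (1.94e-06) and by 0.35 in Id1KO (0.000497). Cd82, a tetraspanin, fell by 0.43 in Tet2KO against WT (2.65e-06). It rose by 0.25 from Tet2KO to dKO (0.00169) and was still 0.18 below WT in dKO (0.0183). Cd53, a tetraspanin and the most abundant gene of the list, rose by 0.30 in Tet2KO against WT (2.71e-07). In Id1KO against WT 5 genes were called (25%, against 15% of all genes), and 2 or 3 with DESeq2 or without any 1 of the WT libraries, Id1KO replicate 1 or Id1KO replicate 3.

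Partners of CD44 showed no common direction. Of 15 tested, 2 were called higher and 4 lower in Tet2KO against WT, and 3 higher and 2 lower in dKO against Tet2KO, or 3 in all without dKO replicate 2. The shares of 40% and 33.3% were below the 44.6% and 38.7% of genes at 30 CPM or more, and above the 32.8% and 26.4% of all genes. Mmp14, a membrane protease that cuts CD44, stood at 24.4 ± 0.98 CPM in WT, 12.5 ± 0.33 in Tet2KO, 17 ± 0.88 in dKO and 21.3 ± 0.58 in Id1KO. It fell by 0.96 ± 0.062 in Tet2KO against WT (edgeR adjusted p 4.14e-10) and rose by 0.44 ± 0.067 from Tet2KO to dKO (5.79e-05). Its fall of 0.19 in Id1KO against WT (0.0238) was lost with DESeq2 (0.14) and without WT replicate 1 or 3 or Id1KO replicate 1 or 3 (0.0686 to 0.109). Cd74, the invariant chain that pairs with CD44 as a cytokine receptor, rose by 0.29 ± 0.052 in Tet2KO (0.000222) and 0.21 ± 0.052 in Id1KO against WT (0.00859). Srgn, the proteoglycan serglycin and a CD44 ligand, fell by 0.24 ± 0.027 from Tet2KO to dKO (1.47e-06).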

How the data were processed

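RNA of sorted donor marrow progenitors was extracted on small-scale spin columns and made into stranded, ribosome-depleted total RNA libraries, per the labels' protocols. The authors deposited estimated counts per gene, not normalized, with values that are not whole in 8.2% of genes. The submitters' processing notes name STAR, RSEM and mm10, without versions or the strand setting. All 55450 identifiers matched GENCODE M21 (GRCm38) with their versions, which gave positions and merged exon lengths.

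Libraries were grouped by genotype label. Estimated counts were rounded, filtered with edgeR's filterByExpr (minimum count 10, 14346 genes left) and scaled by TMM. EdgeR's quasi-likelihood model took all 12 libraries with 1 mean for each genotype, and gave two-sided F-tests adjusted by the Benjamini-Hochberg method (threshold 0.05). Standard errors are the log2 change divided by the root of F. CPM per kb divides by merged exon length. Pairs of libraries within a genotype all differed beyond sampling noise (12 of 12, chi-square), so none was merged. The members and lists were chosen with earlier results of these data known. Genes named from the lists are, per list and comparison, the highest and lowest log2 change among called genes with at least 5 CPM in a compared group and no overlap between libraries, and the most abundant gene; 1 gene that meets this rule is not reported here. Alternatives were DESeq2, 3 other scalings (RLE, upper quartile, and one that omits mitochondrial and structural RNA), 2 other filters, a fit to the compared groups alone, a block for replicate number, each library dropped in turn, glmTreat with a 1.2-fold minimum, and counts summed per genotype. Similar transcripts were sought with blast (95% identity over 100 bp). The fits were tested on simulated data. The tools were edgeR 4.0.16 and DESeq2 1.42.0 with limma 3.58.1 in R 4.3.3, blast 2.17.0, and matplotlib 3.10.9 in Python 3.11.15.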

Additional observations from a re-analysis of the deposited data

Results flagged for a closer look

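For 4 of the 10 receptors the change with the Id1 label differed between the Tet2KO and the WT background by the interaction test of edgeR (adjusted p under 0.05). Among all genes tested, 14.5% had a called interaction and 7.03% a negative one. The effect of the Id1KO label on the Tet2KO background minus its effect on the WT background (log2) was -0.38 for Itgam, -0.27 for Itgb2, -0.20 for Cxcr4 and -0.16 for Itga6. None of the 4 was called in Id1KO against WT. Itgam and Itgb2 were below WT in dKO, and Cxcr4 and Itga6 fell from a raised level in Tet2KO to dKO. The number called was 2 without Tet2KO replicate 1 and 5 without Id1KO replicate 2.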

How the results depend on the processing

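The libraries of a genotype may be repeats of 1 cell sample, and this limits every call. With libraries summed per genotype and additive effects, no member was called in the 4 comparisons of 1 label (0 of 10 in each), and 232 genes were called for Tet2 (Tet2KO against WT, dKO against Id1KO) and 7 for Id1 (Id1KO against WT, dKO against Tet2KO). The lowest adjusted p of a member was 0.119 for Itgal (Tet2) and 0.367 for Selplg (Id1), with 1 residual degree of freedom. In this fit the sign turned for Cxcr4 (-0.08) and Itgb1 (-0.01) in Id1KO against WT, for Itgb2 (-0.03) and Itgam (-0.10) in Tet2KO against WT, for Itga2b in Tet2KO against WT (-0.11) and dKO against Tet2KO (0.13), for Mmp14 in Id1KO against WT (0.12), and for Srgn in Tet2KO against WT (-0.13) and Id1KO against WT (-0.09). None of these had an adjusted p below 0.488. The summed fit takes the same effect on both backgrounds by construction, so it gives no value for the interaction. Its value for dKO against WT was not computed. The fit to the compared groups alone gives none for the interaction.

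Against a 1.2-fold change (glmTreat) the members called fell to 0, 0, 0, 1, 0 and 0 for, in this order, each of Tet2KO, Id1KO and dKO against WT, then dKO set against Tet2KO and against Id1KO, then the interaction, and the genes called to 769, 140, 477, 334, 481 and 237. At an unadjusted p under 0.05 the members were 1, 0, 1, 1, 0 and 1. DESeq2 called 1342 genes for the interaction, against 2078. The cause was not tested. The 3 scalings and the 2 other filters changed no call of a member, and scaling moved the median of all genes by at most 0.01.

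Leaving out 1 library gave 4 to 5 members called in Tet2KO against WT, 5 in Id1KO against WT, 4 to 5 in dKO against WT, 7 to 8 in dKO against Tet2KO, 6 to 8 in dKO against Id1KO and 2 to 5 for the interaction. The sign of an uncalled difference turned for Cxcr4 (-0.01 to 0.03, negative without WT replicate 1) and Itgb1 (-0.01 to 0.03, negative without WT replicate 3) in Id1KO against WT, for Itgb1 in dKO against Tet2KO (-0.06 to 0.01, positive without dKO replicate 1) and for Itga6 in dKO against Id1KO (-0.01 to 0.05, negative without dKO replicate 2).

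Deviations from the genotype mean correlated from -0.10 to 0.11 over 18 pairs of libraries with the same number in different genotypes. Over 36 pairs with different numbers they correlated from -0.10 to 0.17. Still, 7 of 12 libraries were nearest to their own number, so this check does not settle whether the numbers mark a pairing. With the replicate block, 4, 5, 5, 7, 8 and 4 members and 4523, 1952, 2565, 3592, 2576 and 1871 genes were called, in the same order of comparisons. Of the 60 tests of members, the block ended the calls of Itga4 in dKO against Tet2KO (adjusted p 0.0576) and Selplg in Tet2KO against WT (0.051).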

Other observations

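The genes whose levels over the 12 libraries lay closest to a member were sought for the 3 members with the widest range of means, among 9799 other genes at 5 CPM or more. Distance was taken between centred log2 CPM values. Closest to Itgam were Zdhhc21 and Slc28a2 (Pearson correlation 0.95 each), to Itgal Gtf2ird1 (0.98) and Zfp704 (0.96), and to Selplg Tap1 (0.97) and Ramp1 (0.96). Zdhhc21 averaged 68.5 CPM in WT, 74.2 in Tet2KO, 52.8 in dKO and 68.1 in Id1KO, and Tap1, a peptide transporter of antigen presentation, 185, 188, 168 and 154 in the same order. The 12 libraries form 4 groups of near repeats, so these correlations rest on little more than 4 levels and describe likeness only.

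Cerkl, which overlaps the exons of Itga4 on the opposite strand, was listed at 54 to 81 counts per library in WT, 40 to 47 in Tet2KO, 20 to 29 in dKO and 56 to 68 in Id1KO. The ratio of its mean CPM in dKO to that in WT was -1.27 on the log2 scale.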
